A study of Mus musculus with 12 samples.

Results

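The 9 genes described here make abundant nuclear noncoding RNAs or host small nucleolar RNAs (snoRNAs): Neat1, Malat1, Pvt1, Gas5, Snhg1, Snhg12, Rn7sk, Rmrp and Rpph1. They were chosen by name, out of 32688 genes in the count table, and all 9 passed the filter on low counts. The cells were RAW264.7, a macrophage line from the mouse, in 4 groups of 3 libraries: Null control cells, Null cells after 8 h in 100 µM etoposide, control cells lacking both TFEB and TFE3 (CRISPR double knockout, DKO), and DKO cells after the same etoposide treatment. Etoposide is a topoisomerase II poison that leaves DNA breaks, and the pair TFEB and TFE3 are sister transcription factors best known for switching on lysosomal genes. The comparisons ask how the RNAs respond to this damage and whether the response depends on TFEB and TFE3. Controls are untreated by their labels and DMSO-treated by the methods of the study. Each genotype is represented by 1 line, so a difference between them cannot be told apart from a difference between those 2 lines. Nothing in the labels says that replicates were separate cultures. A figure caption of the study calls the 3 etoposide-treated samples of each line independent, without saying in what way. The p-values therefore measure the spread between these libraries, which may be technical.

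Neat1 is the scaffold of paraspeckles, nuclear bodies that hold RNA-binding proteins. It has a short and a long form that start at the same place, and only the long form builds the body. Malat1 lies next to Neat1 on the chromosome and sits in nuclear speckles, where splicing factors gather. Pvt1 is the long noncoding neighbour of the oncogene Myc. Gas5, Snhg1 and Snhg12 carry snoRNAs in their introns, which guide chemical modification of ribosomal and spliceosomal RNA, while their spliced transcripts are usually short-lived and removed by nonsense-mediated decay. Rn7sk is the 7SK RNA, which holds the elongation kinase P-TEFb in an inactive complex. Rmrp and Rpph1 are the RNA subunits of RNase MRP and RNase P, which process ribosomal RNA and transfer RNA precursors. These last 3 are made by RNA polymerase III and have no poly(A) tail, so they are seen here because the libraries were made from total RNA after removal of ribosomal RNA.

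Libraries held 29837255 to 61809316 counts, of which the 9 genes together took 2.53% to 3.93%. Tfeb and Tfe3 were examined as a check of the labels. Tfeb stood at 16.6 to 17.2 CPM, the count scaled to the size of the library, in Null control, 7.10 to 7.95 CPM in Null etoposide, 3.14 to 5.24 CPM in DKO control and 4.27 to 4.44 CPM in DKO etoposide libraries. Tfe3 was at 89.3 CPM or more in every Null library and at 42.5 CPM or less in every DKO library. MEFs, the usual name of embryonic fibroblasts, stands beside RAW264.7 in the titles of the libraries from etoposide-treated DKO cells, whereas their other labels say RAW264.7 alone. The 8 macrophage markers examined summed to 4583 to 4773 CPM in these 3 libraries, against 4191 to 5130 CPM in the other 9. Of the 8, Fcgr1 alone was lower there than in all the others, at 4.72 to 5.42 CPM against 28.4 CPM or more. The 8 fibroblast markers summed to 0.962 to 1.199 CPM, against 0.152 to 2.03 CPM.

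The sequences that the counts turn on are printed 5′ to 3′ from GENCODE M21 (GRCm38). Within the first 1193 bases of Neat1 the annotation lists 3 small genes on the same strand, which serve below as windows on its 5′ part. They are Gm28006 (bases 442 to 563 of Neat1, chr19:5844916-5845037, minus strand), Gm27505 (bases 732 to 841, chr19:5844638-5844747) and Gm27533 (bases 1042 to 1193, chr19:5844286-5844437), all 3 inside the short transcript of 3004 bases as well as the long one of 20771 bases.
Gm28006: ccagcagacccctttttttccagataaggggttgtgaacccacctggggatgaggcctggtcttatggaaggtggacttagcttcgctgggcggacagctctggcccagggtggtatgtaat
Gm27505: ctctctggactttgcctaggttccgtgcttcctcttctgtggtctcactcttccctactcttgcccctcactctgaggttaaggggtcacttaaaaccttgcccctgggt
Gm27533: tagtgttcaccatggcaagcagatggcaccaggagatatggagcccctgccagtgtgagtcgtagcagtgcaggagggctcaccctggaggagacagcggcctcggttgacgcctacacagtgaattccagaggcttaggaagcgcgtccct

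The annotated exons of the snoRNA hosts cover their snoRNAs too. Gm22357 (chr1:161036057-161036139, plus strand) holds the most counts inside Gas5, Gm25894 (chr19:8724251-8724325, plus strand) inside Snhg1, and Snora44 (chr4:132309941-132310069, plus strand) inside Snhg12. Capitals mark the letters ATGATGA in Gm22357, which match the C box of a C/D box snoRNA. In Gm25894 no full match to the C box was found, and the letters GATGAT, which are not one, are marked in its place. The last CTGA, which matches the D box, is in capitals in both, searched on the strand of the gene. Over the 1507 annotated mouse snoRNA transcripts, 18.7% hold ATGATGA, 12% hold GATGAT (these letters can overlap) and 79.5% hold CTGA. Snora44 belongs to the H/ACA class and is shown without capitals.
Gm22357: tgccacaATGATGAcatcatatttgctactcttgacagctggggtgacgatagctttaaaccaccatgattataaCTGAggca
Gm25894: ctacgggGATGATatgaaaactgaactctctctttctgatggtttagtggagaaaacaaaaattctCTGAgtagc
Snora44: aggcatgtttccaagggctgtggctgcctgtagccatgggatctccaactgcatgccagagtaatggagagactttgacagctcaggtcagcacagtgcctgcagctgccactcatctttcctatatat

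Rmrp (chr4:43492788-43493058, minus strand) is shown whole because its counts reappear under a neighbour. Capitals mark the 124 bases that lie in exons of Ccdc107, a protein-coding gene on the opposite strand.
Rmrp: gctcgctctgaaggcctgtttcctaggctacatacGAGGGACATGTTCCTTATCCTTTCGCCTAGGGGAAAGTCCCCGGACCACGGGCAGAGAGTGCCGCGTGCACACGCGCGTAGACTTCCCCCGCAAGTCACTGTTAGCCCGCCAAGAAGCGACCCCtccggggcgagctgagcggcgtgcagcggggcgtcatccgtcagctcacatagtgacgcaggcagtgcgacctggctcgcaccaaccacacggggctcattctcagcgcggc

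For Rn7sk the first 110 of 331 bases are shown (chr9:78175524-78175633, minus strand), the part known to bind the P-TEFb inhibitor HEXIM1, with the letters GATC in capitals. They occur 3 times in this stretch and nowhere else in the gene, and 4.95% of 566 annotated transcripts of the same type hold GATC 3 times or more in their first 110 bases.
Rn7sk: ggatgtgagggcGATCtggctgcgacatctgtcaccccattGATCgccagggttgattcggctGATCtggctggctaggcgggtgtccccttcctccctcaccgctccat

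Host genes of snoRNAs often start within a run of pyrimidines. Promoters were at hand in RefSeq (GRCm38.p6) for 4 of the 9 genes, Malat1, Gas5, Snhg1 and Snhg12, and 50 bases to each side of the start are printed for the hosts (chr1:161035116-161035215 for the second of 2 entries of Gas5, chr19:8723437-8723536 for Snhg1 and chr4:132308628-132308727 for Snhg12, all on the plus strand), with the longest run of C and T within 25 bases of the start in capitals.
Gas5: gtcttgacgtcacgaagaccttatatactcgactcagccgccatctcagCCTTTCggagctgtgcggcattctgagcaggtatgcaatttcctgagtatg
Snhg1: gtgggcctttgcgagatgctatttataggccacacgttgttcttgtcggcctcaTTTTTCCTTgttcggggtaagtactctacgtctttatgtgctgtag
Snhg12: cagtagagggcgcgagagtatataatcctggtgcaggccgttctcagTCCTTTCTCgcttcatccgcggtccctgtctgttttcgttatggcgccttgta
The runs are 6, 9 and 9 bases long, against 4 bases for Malat1 and 3 for the other Gas5 entry. Of 32851 promoters, 43.9% have a run of 6 or more and 13.3% a run of 9 or more. CACGTG, the core of the site that TFEB and TFE3 bind, was not found in the 300 bases of any of these 5 entries, on either strand, and is found in 7.15% of all promoters.

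The 3 polymerase III RNAs outranked nearly all other genes. On the scale of CPM per kilobase of annotated exon, averaged over the 12 libraries, Rn7sk stood at 37720 (second of all genes), Rmrp at 27130 (rank 3) and Rpph1 at 24310 (rank 5). Malat1 followed at 456 (rank 88), then Gas5 at 76.3, Snhg1 at 30.0, Snhg12 at 11.1, Neat1 at 9.05 and Pvt1 at 1.62. Over single libraries Rn7sk (29180 to 45340 CPM per kilobase), Rmrp (18960 to 34670) and Rpph1 (19460 to 30070) overlapped their neighbours in this order, as did Snhg12 (6.95 to 16.0) and Neat1 (7.31 to 12.3). The other neighbours did not overlap in any library. By CPM alone the mitochondrial ribosomal RNA mt-Rnr2 ranked first. A further identifier, ENSMUSG00000110451, held the same count as Rn7sk in all 12 libraries, so the counts of Rn7sk stand in the table under 2 names.

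**Figure D1:**
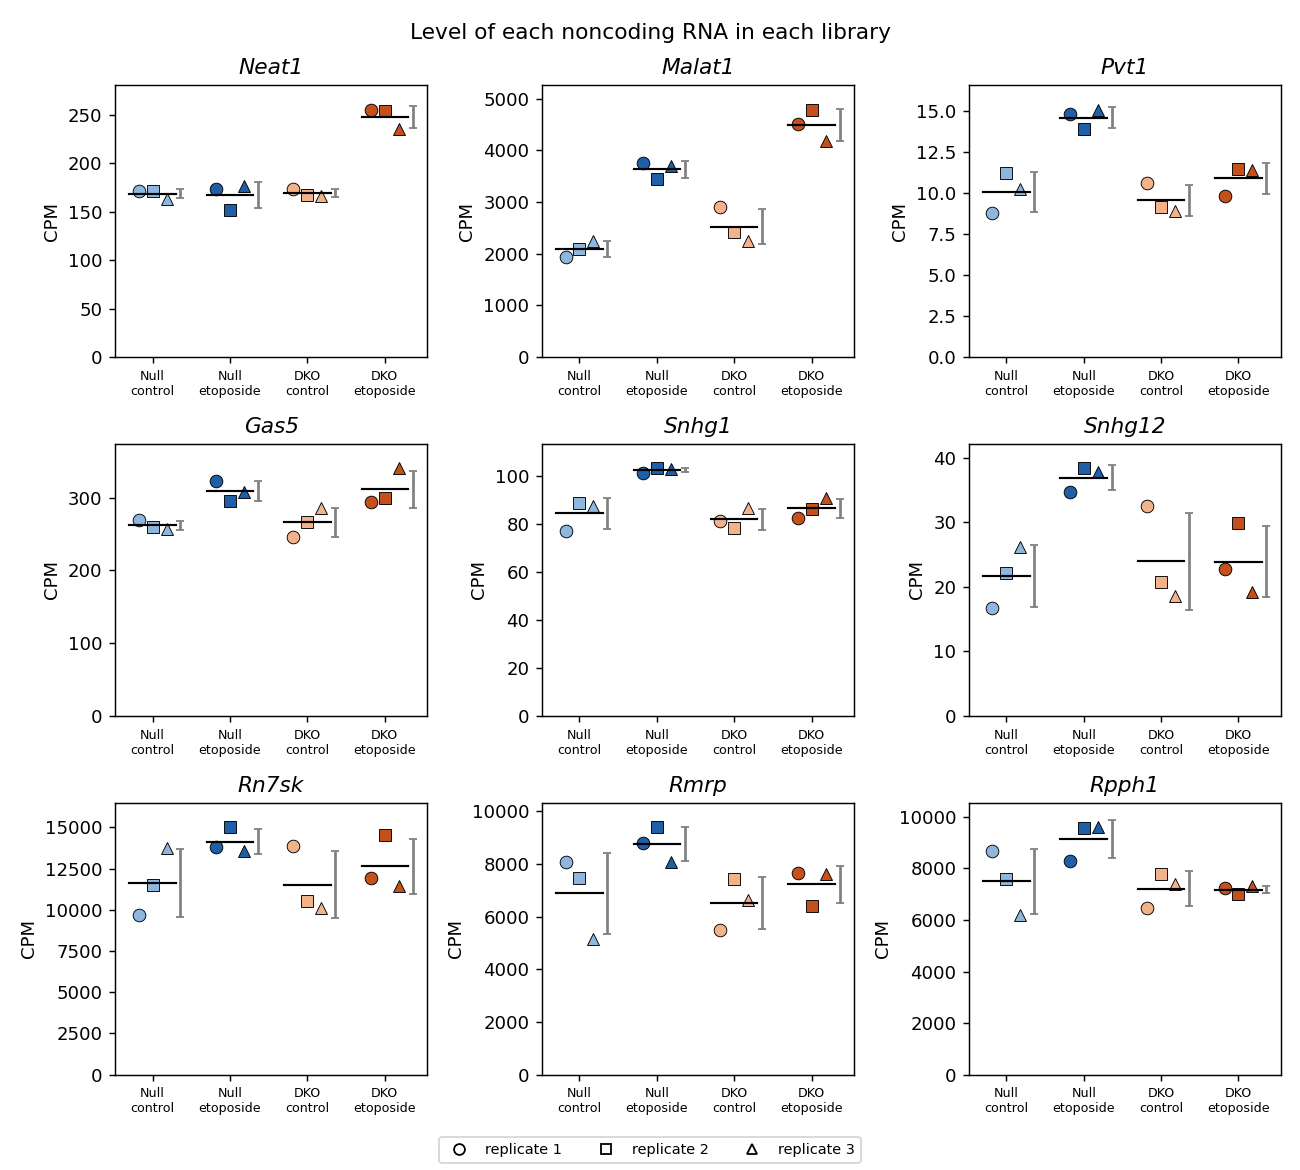
CPM of each of the 9 RNAs (vertical axis, from 0) in each of the 12 libraries, by group; symbols are replicates, lines are group means and grey bars are ± 1 SD. Neat1 stands apart in DKO etoposide libraries only (235 to 255 CPM), Malat1 is higher with etoposide in both lines, and the 3 polymerase III RNAs overlap between most groups.

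Neat1 rose with etoposide in DKO cells and did not change detectably in Null cells. Neat1 (ENSMUSG00000092274.2, chromosome 19, 5824708 to 5845478, minus strand, a lincRNA of 1 exon) was at 171, 172 and 163 CPM in Null control libraries, 173, 152 and 177 CPM in Null etoposide libraries, 173, 167 and 167 CPM in DKO control libraries, and 255, 254 and 235 CPM in DKO etoposide libraries. The 3 DKO etoposide libraries lay above the other 9, which overlapped. In these bulk samples a gene's level in all cells and the share of cells that express it cannot be told apart.

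Its response was 1.47-fold in DKO cells (log2 difference 0.55, SE 0.0723, limma-trend adjusted p 6.16e-05) and -0.01 on the log2 scale in Null cells (95% interval -0.171 to 0.145, adjusted p 0.908). The interaction, which is the DKO response minus the Null response, was 0.57 (SE 0.102, adjusted p 0.00346). Between the control groups Neat1 differed by 0.00 (95% interval -0.153 to 0.162), and after etoposide it was 1.49-fold higher in DKO cells (adjusted p 5.81e-05). The DKO response and the interaction passed the threshold under each of the alternatives run, with the interaction between 0.50 and 0.64.

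The 5′ windows of Neat1 gave other values than the whole gene, a difference that was not itself tested. In Null cells all 3 fell with etoposide, Gm28006 by 0.69 on the log2 scale (SE 0.179, limma-trend adjusted p 0.00857), Gm27505 by 0.74 (SE 0.203, adjusted p 0.0121) and Gm27533 by 0.89 (SE 0.263, adjusted p 0.0169). In DKO cells Gm28006 rose by 0.51 (adjusted p 0.0403), while Gm27505 at 0.36 and Gm27533 at 0.45 did not pass the threshold. Their interactions were 1.19, 1.09 and 1.34 (adjusted p 0.00957, 0.0317 and 0.0405).

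Together the windows held 7.44%, 9.29% and 9.42% of the Neat1 counts in Null control libraries and 4.64%, 5.70% and 5.09% in Null etoposide libraries, which do not overlap. In DKO cells the shares were 8.91%, 5.68% and 5.24% without and 6.66%, 6.04% and 5.52% with etoposide, and DKO control replicate 1 stood apart from its replicates. The windows are short, with 1580 to 3622 counts each over the 12 libraries. The fall of Gm27505 in Null cells was no longer called without Null control replicate 2 or Null etoposide replicate 1 (log2 -0.64 to -0.58), that of Gm27533 also without Null control replicate 3 (-0.87 to -0.79), and that of Gm28006 was called without any 1 library. The rise of Gm28006 in DKO cells was lost without any of 8 single libraries (Null control replicate 2, DKO control replicates 2 and 3, all 3 Null etoposide libraries, and DKO etoposide replicates 1 and 2, log2 0.39 to 0.52). It was also lost with edgeR (0.47), without the low-count filter (0.50), with a replicate block (0.51) and with only the groups compared (0.50). Removing each library's trend against GC content, an alternative added after seeing the data, ended the call as well (0.33, limma-trend adjusted p 0.17). The interaction of Gm28006 was called in all 12 fits that left out 1 library. The interactions of Gm27505 (0.91 to 1.16) and Gm27533 (1.15 to 1.39) were each lost without any of 9, namely Null control replicates 2 and 3, DKO control replicates 2 and 3, the 3 Null etoposide libraries, DKO etoposide replicate 1, and DKO etoposide replicate 3 for Gm27505 or 2 for Gm27533. Without DKO control replicate 1, Gm27505 and Gm27533 were called higher with etoposide in DKO cells (0.54 and 0.79), and Gm28006 and Gm27533 lower in DKO than in Null control cells (-0.73 and -0.70).

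**Figure D2:**
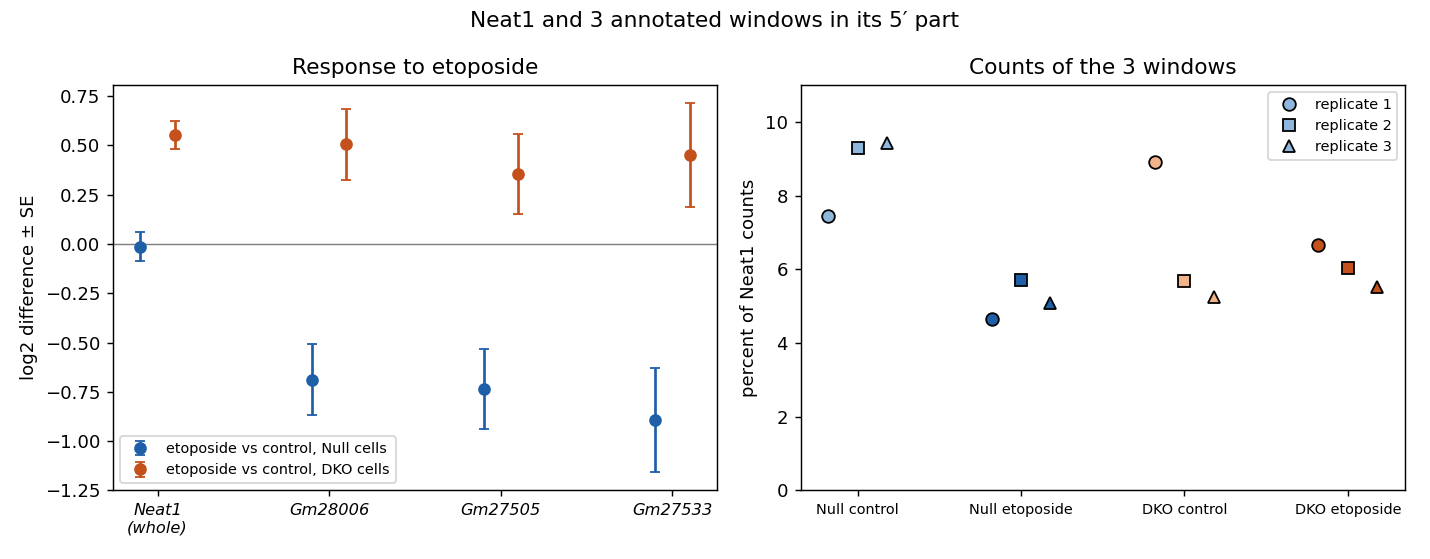
Left, log2 difference between etoposide and control (± SE) for the whole Neat1 gene and for 3 windows in its 5′ part, in Null and DKO cells. Right, percent of the Neat1 counts that the 3 windows hold in each library, where the 3 Null control libraries (7.44% to 9.42%) lie above the 3 Null etoposide libraries (4.64% to 5.70%).

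Malat1 rose with etoposide in both lines by nearly the same factor. Malat1 (ENSMUSG00000092341.2, chromosome 19, 5795690 to 5802672, minus strand, lincRNA) was at 1931, 2100 and 2243 CPM in Null control libraries and at 3748, 3449 and 3700 CPM in Null etoposide libraries. The DKO libraries gave 2903, 2428 and 2240 CPM as controls and 4515, 4785 and 4175 CPM with etoposide. Every treated library lay above every control library, and the control groups of the lines overlapped.

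The rise was 1.74-fold in Null cells (log2 0.80, SE 0.105, limma-trend adjusted p 6.82e-05) and 1.79-fold in DKO cells (0.84, adjusted p 4.25e-05), and both rises were called under each alternative run. The interaction was 0.04 with a 95% interval of -0.283 to 0.363. DKO cells were 1.24-fold higher after etoposide (log2 0.30, adjusted p 0.0411), and this call was lost without Null control replicate 2, without any of the 3 Null etoposide libraries, or without DKO etoposide replicate 1 or 2 (adjusted p 0.0599 to 0.136), and with library size alone (0.0931), a minimum of 1 CPM in 3 libraries (0.0527) or a replicate block (0.0765). In control cells the difference was 0.27 (adjusted p 0.107), and without DKO control replicate 3 it was 0.35 and called (adjusted p 0.048).

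Relative to its neighbour, Malat1 had 11.3 to 13.8 times the counts of Neat1 in Null control libraries and 20.9 to 22.7 times in Null etoposide libraries. The ratio went from 13.5 to 16.7 in DKO control libraries to 17.7 to 18.9 with etoposide, which do not overlap either. A gene annotated inside Malat1 on the opposite strand, Gm37376 (453 bases), rose by 0.97 in Null and 0.89 in DKO cells. Its counts per base were 88% to 111% of those of Malat1 in the same library, so reads of Malat1 and of this antisense gene cannot be told apart in these counts. The genes nearest to Malat1 by pattern, by the root mean square difference of centred log2 CPM over the 12 libraries, were Scrn3 (0.0779), Ahi1 (0.0798) and ENSMUSG00000092267 (0.0856).

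Pvt1 rose in Null cells with etoposide. Pvt1 (ENSMUSG00000097039.8, chromosome 15, 62037986 to 62378096, plus strand, lincRNA) was the lowest of the 9, at 8.82, 11.2 and 10.2 CPM in Null control and 14.8, 13.9 and 15.1 CPM in Null etoposide libraries. The DKO libraries gave 10.7, 9.15 and 8.93 CPM as controls and 9.85, 11.5 and 11.4 CPM with etoposide. The Null etoposide libraries lay above the other 9.

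The Null rise was 1.45-fold (log2 0.54, SE 0.113, limma-trend adjusted p 0.00234), and the DKO difference was 0.19 (95% interval -0.0587 to 0.435, adjusted p 0.217). The interaction of -0.35 did not pass the threshold (adjusted p 0.242), so the responses of the lines are not shown to differ. After etoposide Pvt1 was lower in DKO cells, by 0.42 on the log2 scale (adjusted p 0.0123), which was lost without Null etoposide replicate 3 or DKO etoposide replicate 1 (-0.40 to -0.34). With the counts of genes wholly inside its exons subtracted, another alternative added after seeing the data, neither the Null rise (0.38, adjusted p 0.0793) nor the later difference between the lines (-0.26, adjusted p 0.249) was called.

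The protein-coding neighbour Myc, a transcription factor that drives growth, rose in Null cells with etoposide as Pvt1 did but differed far more between the lines. Myc had 0.174 ± 0.0851 CPM in the control and 0.749 ± 0.0456 CPM in the etoposide libraries of Null cells, and 9.76 ± 2.03 and 7.06 ± 0.591 CPM in those of DKO cells (SD, n = 3). With etoposide it rose by 1.87 in Null cells (limma-trend adjusted p 1.02e-04) and differed by -0.45 in DKO cells, which limma-trend did not call (adjusted p 0.199) while DESeq2 (-0.46, adjusted p 0.0373) and limma-voom (-0.44, adjusted p 0.0408) called it lower. The interaction was -2.31 (limma-trend adjusted p 0.00134). It was higher in DKO than in Null control cells by 5.45 on the log2 scale (limma-trend adjusted p 1.47e-08), where Pvt1 differed by -0.07 (adjusted p 0.74). The 2 annotated genes that lie wholly within Pvt1 exons, Gm27913 (173 bases) and Gm27718 (86 bases), held 38.3% to 50.4% of its counts. Gm27913 was lower by 0.84 in DKO cells after etoposide, and its rise of 0.79 in Null cells was 0.47 and no longer called with the GC trend removed (adjusted p 0.0549).

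Gas5, the most abundant of the 3 snoRNA hosts, rose slightly in both lines. Gas5 (ENSMUSG00000053332.13, chromosome 1, 161034422 to 161038539, plus strand) was at 269, 259.9 and 256 CPM in Null control and 323, 295 and 308 CPM in Null etoposide libraries. In DKO cells it was at 246, 267 and 286 CPM without and 293, 299.8 and 339.9 CPM with etoposide. The treated libraries lay above the controls of the same line, by small margins.

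Its rise was 1.18-fold in Null cells (log2 0.24, limma-trend adjusted p 0.0321) and 1.17-fold in DKO cells (0.22, adjusted p 0.0406), and the interaction was -0.01 (95% interval -0.257 to 0.233). The first call was lost without any 1 of 7 libraries (Null control replicates 2 and 3, DKO control replicate 2, Null etoposide replicates 1 and 3, and DKO etoposide replicates 1 and 2, adjusted p 0.0538 to 0.15). The second was lost without any 1 of 8 (Null control replicate 2, DKO control replicates 1 and 2, all 3 Null etoposide libraries, and DKO etoposide replicates 2 and 3, adjusted p 0.0505 to 0.146). With only the groups compared the second gave an adjusted p of 0.141, without the low-count filter 0.0662, and with a minimum of 1 CPM in 3 libraries 0.051. With a replicate block the calls gave 0.0505 and 0.0612.

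Most of the Gas5 counts lay in genes annotated as snoRNAs inside its exons, where reads of the snoRNAs and of the host transcript cannot be told apart. These 9 loci held 51.5% to 67.4% of the Gas5 counts, and Gm22357 alone 32.7% over the 12 libraries. With the counts of these inner genes subtracted, Gas5 differed by 0.18 in Null cells (adjusted p 0.14) and by 0.00 in DKO cells (adjusted p 0.977). Of the snoRNAs, Gm23212 rose in both lines (0.32 and 0.28), a call lost in Null cells without Null etoposide replicate 1 (0.23) and in DKO cells without DKO control replicate 2 or 3 or DKO etoposide replicate 2 or 3 (0.26 to 0.29). Gm22489 rose in DKO cells by 0.59 (limma-trend adjusted p 0.00485). Gm22357 rose there by 0.39 (adjusted p 0.0459), a call lost without any of 8 single libraries (0.23 to 0.45) and in 6 other alternatives. Gm26224 rose in Null cells by 0.575 (adjusted p 0.0471).

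Snhg1 (ENSMUSG00000108414.1, chromosome 19, 8723475 to 8726443, plus strand) rose in Null cells. It was at 76.9, 88.8 and 87.6 CPM in Null control and at 102, 103 and 103 CPM in Null etoposide libraries. DKO control libraries gave 81.1, 78.2 and 86.8 CPM, and DKO etoposide libraries 82.7, 86.1 and 90.8 CPM. The Null etoposide libraries lay above the other 9 and varied little, with an SD of 0.0130 on the log2 scale.

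The Null rise was 1.22-fold (log2 0.28, SE 0.0736, limma-trend adjusted p 0.00848) and the DKO difference was 0.08 (95% interval -0.0837 to 0.237). The interaction was -0.21 (adjusted p 0.293). After etoposide Snhg1 was lower in DKO than in Null cells by 0.25 on the log2 scale (adjusted p 0.0211), a call lost without any of the 3 Null etoposide libraries or without DKO etoposide replicate 1 or 2 (-0.25 to -0.21), and with the GC trend removed (-0.10, adjusted p 0.216). With that trend removed the DKO difference with etoposide was 0.26 and called (adjusted p 0.00523). Its 8 inner snoRNA genes held 39.5% to 50.7% of the counts. With them subtracted, the Null rise was 0.21 (adjusted p 0.0857).

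Among these inner genes Gm25894 rose in Null cells by 0.45 (limma-trend adjusted p 0.0274), a call lost without Null control replicate 1 or 3 or any Null etoposide library (0.40 to 0.46). Snord22 was lower in DKO cells both as controls (-0.75, adjusted p 0.03) and after etoposide (-0.84, adjusted p 0.0109). The control call of Snord22 was lost without Null control replicate 2 or 3 or DKO control replicate 2 or 3 (-0.71 to -0.59), and with a replicate block (adjusted p 0.0625) or only the groups compared (0.124).

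Snhg12 (ENSMUSG00000086290.8, chromosome 4, 132308623 to 132311024, plus strand) had the largest rise of the hosts among the 9 and the widest spread. Null control libraries gave 16.7, 22.2 and 26.2 CPM and Null etoposide libraries 34.7, 38.4 and 37.7 CPM. In DKO cells it was at 32.5, 20.8 and 18.6 CPM as controls and at 22.7, 29.9 and 19.2 CPM with etoposide, so that the 2 DKO groups covered nearly the same range, below the Null etoposide libraries.

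The rise in Null cells was 1.73-fold (log2 0.79, SE 0.219, limma-trend adjusted p 0.0123), and in DKO cells the difference was 0.02 (95% interval -0.46 to 0.494). The interaction was -0.77 (adjusted p 0.17), which does not pass the threshold. After etoposide Snhg12 was lower in DKO cells by 0.65 on the log2 scale (adjusted p 0.0377). That call was lost without Null control replicate 2, any Null etoposide library, or DKO etoposide replicate 1 or 3 (-0.69 to -0.50), with a replicate block (adjusted p 0.071), with the GC trend removed (-0.57, adjusted p 0.0645) and with inner counts subtracted (-0.56, adjusted p 0.0633).

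Inside Snhg12, 4 snoRNA loci held 18.9% to 38% of the counts. Snora44, with 18.5% over the 12 libraries, rose in Null cells by 0.79 (limma-trend adjusted p 0.022), a call lost without Null control replicate 1 or Null etoposide replicate 2 or 3 (0.68 to 0.78) or with the GC trend removed (0.64). It was lower in DKO cells already among controls, by 0.76 on the log2 scale (adjusted p 0.0479), and after etoposide, by 1.01 (adjusted p 0.00677), and the interaction was not called (-0.25, adjusted p 0.781). The control call was lost in 6 alternatives, with edgeR (adjusted p 0.0731), limma-voom (0.0562), no low-count filter (0.0624), a replicate block (0.0877), only the groups compared (0.132) and the GC trend removed (0.0508). It was also lost without any of 8 single libraries (Null control replicates 2 and 3, DKO control replicates 2 and 3, the 3 Null etoposide libraries and DKO etoposide replicate 1, -0.78 to -0.59), while the later one kept its call in each such fit.

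**Figure D3:**
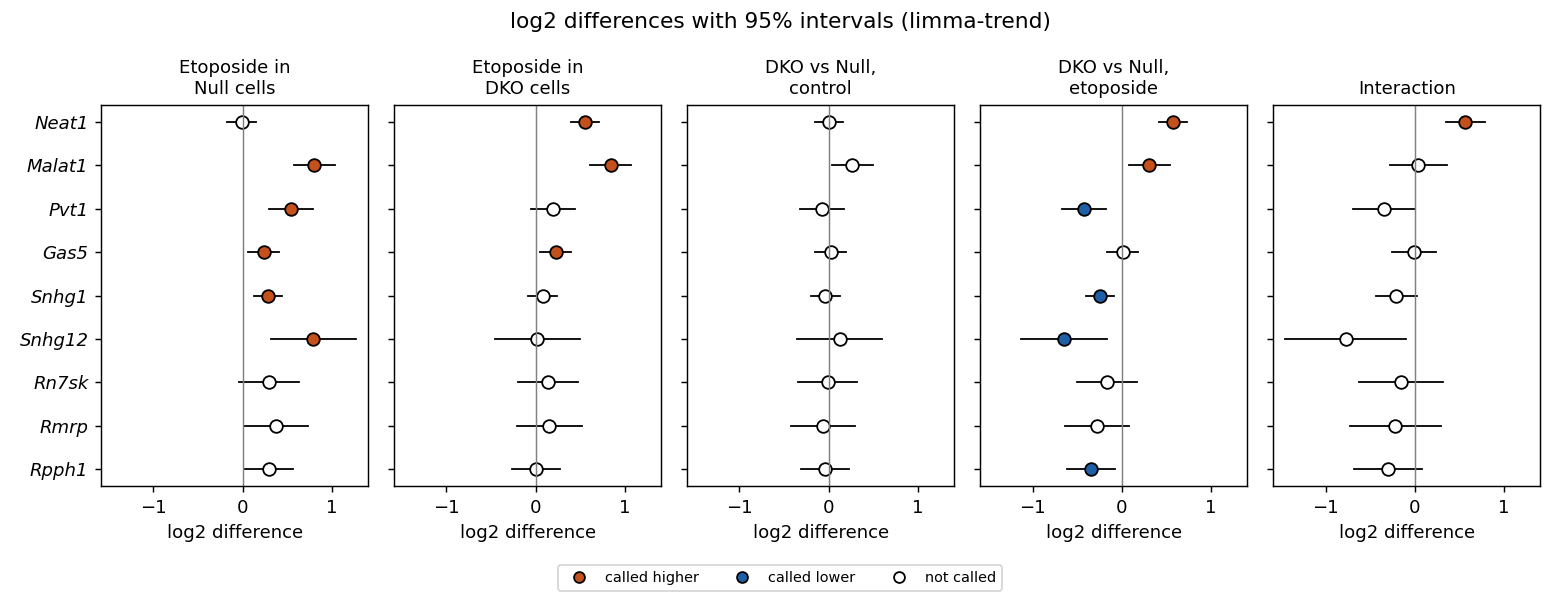
log2 differences of the 9 RNAs (points, horizontal axis) with 95% intervals in the 5 contrasts; filled points passed the threshold (limma-trend adjusted p under 0.05), orange higher and blue lower. In Null cells 5 RNAs were called higher with etoposide, in DKO cells 3, and the interaction was called for Neat1 alone, at 0.57.

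Across the 9 genes, 5 were called higher with etoposide in Null cells (Malat1, Pvt1, Gas5, Snhg1 and Snhg12), where 39.6% of all 18066 genes tested were called, 20.9% higher and 18.7% lower. In DKO cells 3 were called higher (Neat1, Malat1 and Gas5), where 39.3% of all genes were called, 20.2% of them higher and 19.1% lower as shares of those tested. Between the control groups limma-trend called 0 of the 9, as did edgeR and DESeq2, with 19.3% of all genes called, 10.9% higher and 8.4% lower. Under an unadjusted limma-trend p of 0.05 there was 1 of the 9, Malat1 (p 0.0266). After etoposide 2 were higher in DKO cells (Neat1 and Malat1) and 4 lower (Pvt1, Snhg1, Snhg12 and Rpph1), where 33.7% of all genes were called, 15.9% higher and 17.8% lower. The interaction was called for 1 of the 9, Neat1, against 9.45% of all genes, 3.07% higher and 6.39% lower.

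The further snoRNA host genes on a list drawn up from general knowledge gave 13 tested genes. With etoposide 5 of the 13 rose and 1 fell in Null cells (median log2 0.30), where 20.9% and 18.7% of all genes did. Of the 5, Epb41l4aos lost its call without any of 9 single libraries (0.24 to 0.35) and in 5 other alternatives. Among these was the GC trend removed (0.10, limma-trend adjusted p 0.54). In DKO cells 1 rose and 2 fell (median -0.02), where 20.2% and 19.1% did, while the medians of all tested genes were 0.03 and 0.03. After etoposide 1 was higher and 5 were lower in DKO cells, where 15.9% and 17.8% of all genes were. The median was -0.32, against -0.01 for all genes. For the interaction, limma-trend, edgeR and DESeq2 each called 0 of the 13, where limma-trend called 9.45% of all genes. Under an unadjusted limma-trend p of 0.05 there were 4 (1 higher and 3 lower). The share of all genes under that threshold was not counted, so these 4 cannot be weighed against it. The responses of the lines are therefore not shown to differ for these hosts.

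Of these hosts, Snhg15 was at 10.7 ± 2.92 CPM in Null control and 22.9 ± 1.24 CPM in Null etoposide libraries (SD, n = 3), a rise of 1.14 on the log2 scale (limma-trend adjusted p 0.00208). Snhg3 went from 89.7 ± 24.6 to 157 ± 7.59 CPM (SD, n = 3), a rise of 0.84 (adjusted p 0.0153) that was lost without Null control replicate 1 or Null etoposide replicate 2 (0.62 to 0.80). Snhg17 rose by 0.40 in Null cells, and its rise of 0.28 in DKO cells was 0.18 and not called with the GC trend removed. Snhg5 moved the other way, and fell in DKO cells by 0.55 (adjusted p 6.7e-04), from 37.1 ± 2.69 to 25.3 ± 1.47 CPM (SD, n = 3), and the other host called lower there, Snhg18, was at 0.0935 CPM on average.

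Reads of overlapping genes enter several of these values. Snora73a within Snhg3 and an antisense gene could each account for up to 68.7% and 69.2% of its counts. Rps2 on the opposite strand could account for up to 85.2% of the counts of Snhg9, which rose by 1.17 in Null cells, and Ube3a for up to 41.1% of those of Snhg14, which fell by 0.90.

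**Figure D4:**
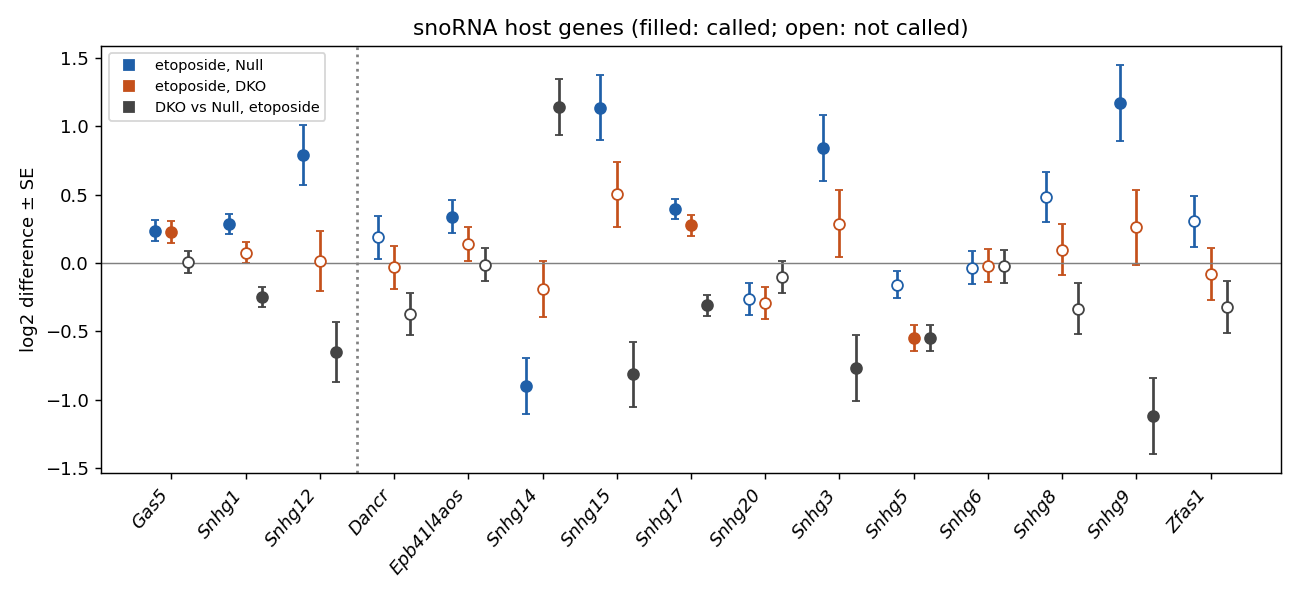
log2 differences (± SE, vertical axis) of Gas5, Snhg1 and Snhg12, left of the dotted line, and of 12 of the 13 further snoRNA host genes, right of it; filled points were called. Snhg18, at 0.0935 CPM, is left out. Snhg15, Snhg3 and Snhg9 rose in Null cells (0.84 to 1.17), while Snhg5 fell in DKO cells (-0.55).

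None of the 3 polymerase III RNAs was called in the response of either line. Rn7sk (ENSMUSG00000065037.1, chromosome 9, 78175303 to 78175633) was at 9659, 11520 and 13750 CPM in Null control libraries, 13840, 15010 and 13550 CPM in Null etoposide libraries, 13880, 10560 and 10140 CPM in DKO control libraries, and 11950, 14530 and 11430 CPM in DKO etoposide libraries. All groups overlapped with another. The difference with etoposide was 0.29 in Null cells (95% interval -0.0403 to 0.627, limma-trend adjusted p 0.152) and 0.14 in DKO cells (-0.195 to 0.473). Without Null control replicate 3 the Null difference was 0.42 and called (adjusted p 0.0498). Over the alternatives run it ranged from 0.01 to 0.42.

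Rmrp (ENSMUSG00000088088.1) was at 8066, 7467 and 5138 CPM in Null control and 8798, 9397 and 8096 CPM in Null etoposide libraries. Its DKO libraries gave 5485, 7451 and 6652 CPM as controls and 7649, 6407 and 7624 CPM with etoposide. The Null etoposide libraries lay just above the highest of the others. The Null difference was 0.37 (95% interval 0.0108 to 0.731, limma-trend adjusted p 0.0961), and without Null control replicate 1 it was 0.50 and called (adjusted p 0.037). Over the alternatives run it ranged from 0.04 to 0.50. In DKO cells the difference was 0.15 (-0.207 to 0.513).

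Rpph1 (ENSMUSG00000092837.1, chromosome 14, 50807449 to 50807767, minus strand) was at 8688, 7579 and 6207 CPM in Null control and 8277, 9557 and 9593 CPM in Null etoposide libraries. In DKO cells it was at 6467, 7782 and 7377 CPM without and 7220, 7018 and 7300 CPM with etoposide. The DKO etoposide libraries differed little among themselves and lay below all 3 Null etoposide libraries. With etoposide the difference was 0.30 in Null cells (limma-trend adjusted p 0.0746), or 0.41 without Null control replicate 1 (adjusted p 0.016), and -0.00 in DKO cells (95% interval -0.27 to 0.266). Over the alternatives run the Null difference ranged from -0.02 to 0.41.

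After etoposide Rpph1 was lower in DKO cells by 0.35 on the log2 scale (limma-trend adjusted p 0.0475). The call was lost without Null control replicate 2, DKO control replicate 2 or 3, Null etoposide replicate 2 or 3, or any DKO etoposide library (-0.35 to -0.31). With the GC trend removed, the difference was -0.15 (adjusted p 0.202), and 3 other alternatives also ended the call (adjusted p 0.0548 to 0.0871).

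Counts of Rmrp and of its neighbour cannot be told apart. Ccdc107 shares 124 bases with Rmrp on the opposite strand, printed above in capitals, and held 93.5% to 96.6% of the count of Rmrp in each library. At 6991 CPM on average it ranked 10 of all genes by CPM.

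The 3 polymerase III RNAs and Snhg12 differed between replicates in a shared way, within deviations that many genes shared. Rn7sk and Snhg12 were highest, and Rmrp and Rpph1 lowest, in the same library of 3 of the 4 groups: Null control replicate 3, DKO control replicate 1 and DKO etoposide replicate 2. In those libraries Rn7sk lay 0.25, 0.28 and 0.21 above its group mean on the log2 scale and Snhg12 0.30, 0.48 and 0.34 above, while Rmrp lay at -0.40, -0.24 and -0.17 and Rpph1 at -0.26, -0.15 and -0.03. Over all genes tested, the deviations of these 3 libraries correlated with each other at r = 0.58, 0.43 and 0.51, a description across genes. Among Null etoposide libraries all 4 RNAs stayed within 0.14 of their group means. Malat1 was also highest of its group in Null control replicate 3, DKO control replicate 1 and DKO etoposide replicate 2, by 0.10, 0.21 and 0.09 above its group mean.

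The same 3 libraries had the lowest share of Gas5 counts held by its inner snoRNA loci in their group (56.0%, 51.5% and 62.0%). The GC content of the transcripts is 58.0% for Rn7sk, 64.2% for Rmrp, 67.1% for Rpph1 and 47.6% for Snhg12. The median deviation of the 3602 genes of highest GC content, minus that of the 3598 genes of lowest, was -0.14 in Null control replicate 3 and 0.15 in Null control replicate 1. In the other 2 libraries it was -0.02 and -0.03, and replicate 3 was lower in both DKO groups (-0.05 and -0.07), so this measure did not follow the pattern there. The part of the Gas5 share and of GC content in these differences was not tested.

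**Figure D5:**
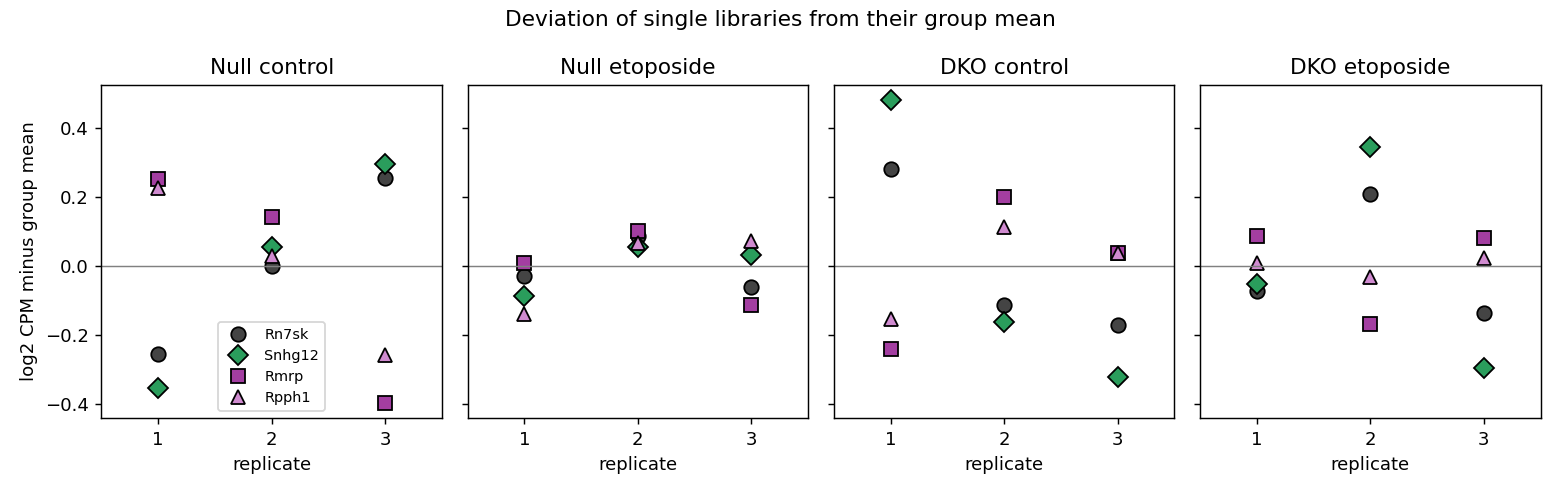
Deviation of log2 CPM from the group mean (vertical axis) for Rn7sk, Snhg12, Rmrp and Rpph1 in each replicate (horizontal axis) of the 4 groups. Rn7sk and Snhg12 lie together and opposite to Rmrp and Rpph1 in Null control replicate 3, DKO control replicate 1 and DKO etoposide replicate 2.

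The spread between replicates differed among the 9 RNAs. The pooled SD within groups was 0.0728 on the log2 scale for Neat1, larger than that of only 7.73% of tested genes, and 0.0767 for Snhg1 and 0.0868 for Gas5. It was 0.125 for Malat1 and 0.132 for Pvt1, and 0.153, 0.203 and 0.226 for Rpph1, Rn7sk and Rmrp. Snhg12 had the widest, 0.316, at percentile 68.6. For Pvt1 the spread was 2.21 times that of counting alone and for Rn7sk 113 times.

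Protein partners of the 9 RNAs were read from lists made in the same way. Of the 8 genes for the 7SK complex and P-TEFb, 2 rose with etoposide in Null cells (median log2 0.20) and 2 in DKO cells (median 0.11), Hexim1 in both, near the 20.9% and 20.2% of all genes called higher. Mepce, the 7SK capping enzyme, rose by 0.30 in Null cells, a value of -0.00 with the GC trend removed. Cdk9, the kinase of P-TEFb, rose by 0.27 in DKO cells, a call lost in 5 alternatives, among them the GC trend removed (0.23), and without Null control replicate 2, DKO control replicate 1 or 3, any Null etoposide library, or DKO etoposide replicate 1 or 3 (0.21 to 0.30). Hexim1, the P-TEFb inhibitor that binds 7SK, rose most. Null control libraries held 26.4 to 30.5 CPM and Null etoposide libraries 80.2 to 85.1 CPM, and the DKO ranges were 32.2 to 35.5 CPM and 81.3 to 94.97 CPM, so that the rises were 1.56 and 1.35 on the log2 scale (limma-trend adjusted p 3.01e-08 and 5.87e-08). Rn7sk itself was not called in either line, as given above. Hexim2 was lower in DKO cells, by 0.98 in control cells and 0.96 after etoposide, the first not called with only the groups compared (-0.99, adjusted p 0.0506).

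Among 12 genes for paraspeckle proteins 2 fell in Null cells (median log2 -0.18), near the 18.7% of all genes called lower. They were Tardbp (-0.48) and Cpsf6 (-0.44), calls lost for Tardbp without Null control replicate 3 or Null etoposide replicate 2 or 3 (-0.49 to -0.34) and for Cpsf6 without Null control replicate 1 (-0.34) or with the GC trend removed (-0.33). In DKO cells, where Neat1 rose, 1 rose and 4 fell (median -0.22), where 20.2% of all genes were called higher and 19.1% lower. The 5 in all became 2 in all without DKO control replicate 2 or DKO etoposide replicate 1 or 2 and 3 without Null etoposide replicate 1, with library size alone, with a replicate block or with only the groups compared. Smarca4, a chromatin remodeller found in paraspeckles, rose by 0.44 (limma-trend adjusted p 1.36e-04), and its interaction was 0.53 (adjusted p 0.00221). Sfpq, one of the core paraspeckle proteins, was at -0.31 and called, a call lost without DKO control replicate 2 or 3, Null etoposide replicate 1, or DKO etoposide replicate 1 or 2 (-0.33 to -0.23), and with library size alone (-0.24).

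Of 7 genes for speckle proteins and Malat1 processing, Srsf1, Srsf2 and Srsf3 fell in Null cells (-0.63, -0.39 and -0.47), while Malat1 rose and 18.7% of all genes were called lower. In DKO cells, with 19.1% of all genes called lower and 20.2% higher, Srsf1 (-0.69) and Rnps1 (-0.24) fell. Srsf3 was the third called lower (-0.31), which was lost without Null control replicate 2, DKO control replicate 1 or 2, any Null etoposide library, or DKO etoposide replicate 1 or 3 (-0.32 to -0.21), and in 4 other alternatives, among them the GC trend removed (-0.13). Elac2, the RNase Z that trims the small tRNA-like RNA released from the Malat1 end, rose by 0.56 in DKO cells (limma-trend adjusted p 0.00137). The median of this list was -0.16 in Null and -0.13 in DKO cells.

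Of 11 tested genes for RNase P and RNase MRP proteins, Pop1 rose in both lines (0.97 and 0.66, limma-trend adjusted p 4.47e-05 and 8.44e-04). Rpp40 fell in Null cells by 0.68 (adjusted p 4.19e-04). The count was 1 higher and 1 lower in Null cells (median log2 0.00), where 20.9% and 18.7% of all genes were, and 3 higher in DKO cells (median 0.16), where 20.2% of all genes were called higher. The Null count was 4 in all without DKO control replicate 3. Pop7 was called higher there with DESeq2 (0.40, adjusted p 0.0407), a minimum of 1 CPM in 3 libraries (0.0474) or only the groups compared (0.0316), and without DKO control replicate 1 or 3 (0.0171 to 0.0421). In DKO cells the call of Pop7 (0.44) was lost without any of 7 single libraries, Null control replicate 2, DKO control replicates 2 and 3, Null etoposide replicates 2 and 3, and DKO etoposide replicates 1 and 2 (0.31 to 0.44), and in 4 other alternatives, among them the GC trend removed (0.26).

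For the 8 core proteins of snoRNPs, 2 fell in Null cells (median log2 -0.19) and 3 in DKO cells (median -0.12), where 18.7% and 19.1% of all genes were called lower. Nop58 (-0.34 and -0.40) and Dkc1 (-0.47 and -0.29) fell in both. Of 10 factors of nonsense-mediated decay, 3 rose and 3 fell in Null cells, against 20.9% and 18.7% of all genes, and 2 rose and 3 fell in DKO cells, against 20.2% and 19.1% (medians 0.00 and 0.05). Of the 2 that rose in DKO cells, Upf3a lost its call without any of 9 single libraries (0.18 to 0.24) and in 3 other alternatives. Smg1, the kinase of the pathway, fell in both (-0.55 and -0.63), as did Smg6 (-0.81 and -0.54), while Smg8 rose in both (0.67 and 0.84).

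Other noncoding RNAs did not share 1 direction. Of 15 further long noncoding RNAs tested, 3 rose and 6 fell with etoposide in Null cells, where 20.9% of all genes were called higher and 18.7% lower. In DKO cells 1 rose and 6 fell, against 20.2% and 19.1% of all genes, and the medians were -0.01 and 0.05. Mir22hg had the largest rise of the list, by 2.60 in Null and 1.93 in DKO cells, with 1.63 to 2.08 CPM in Null control and 11.1 to 11.7 CPM in Null etoposide libraries. Kcnq1ot1, a long transcript retained in the nucleus like Malat1, fell by 0.98 and 0.95 (limma-trend adjusted p 6.72e-06 and 8.33e-06).

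Of 10 further small noncoding RNAs, 2 rose with etoposide in Null cells (median log2 0.24), near the 20.9% of all genes called higher. They were Terc, the RNA of telomerase, at 0.50 and Vaultrc5, a vault RNA, at 0.62. The call of Terc was lost without Null control replicate 3 or Null etoposide replicate 2 or 3 (0.34 to 0.48), that of Vaultrc5 without Null control replicate 1 or any Null etoposide library (0.39 to 0.64), and both with the GC trend removed (0.18 and 0.41). In DKO cells 3 fell (median -0.29), against 19.1% of all genes, among them Rnu11 (-0.68), an RNA of the minor spliceosome. Between the lines 3 of the 10 were lower in DKO cells already among controls (median -0.39), where 8.4% of all genes were, and 4 after etoposide (median -0.91), where 17.8% were. The 3 among controls were Rnu11, Rnu12 and Vaultrc5, and 1 was called without Null control replicate 2 or DKO control replicate 3 or with only the groups compared. The call of Rnu12 (-0.75) was also lost without DKO control replicate 2 and that of Vaultrc5 (-0.72) without Null control replicate 3. Rnu11 was at 19.1 to 23.2 CPM in Null against 12.2 to 15.1 CPM in DKO control libraries, and at 22.8 to 24.2 CPM against 7.61 to 9.63 CPM after etoposide. Up to 86.8% of the Rnu11 counts could come from an antisense gene.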

How the data were processed

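Per the methods of the study, total RNA was depleted of ribosomal RNA, made into stranded libraries and sequenced as read pairs, which were trimmed where needed, aligned with HISAT2 and counted per gene from uniquely mapped pairs. The authors deposited raw counts per gene with no normalization. The methods name HTSeq and the submitters' processing notes featureCounts and build mm10, and versions and strand setting are not given in the sources used here. Gm37376 and Ccdc107, on the opposite strand of Malat1 and Rmrp, held counts near those of these genes over the shared bases, so values of overlapping genes are not independent. The labels name 2 RNA kits without assigning them to libraries.

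Symbols and coordinates are from GENCODE M21. Genes were filtered with filterByExpr (edgeR 4.0.16), which kept 18066, scaled by TMM and converted to log2 CPM with a prior count of 3. All 12 libraries entered 1 limma-trend model with robust moderation (limma 3.58.1, R 4.3.3), with 5 contrasts, two-sided, Benjamini-Hochberg over all genes tested, and called at 0.05. The code was tested on simulated data. edgeR's quasi-likelihood test and DESeq2 1.42.0 were among the alternatives. The 9 genes and the lists were chosen with earlier results of these data known. Named were all 9 genes, genes inside or over them, Myc, Tfeb, Tfe3, from each list up to 4 called genes of largest change per contrast, and the 3 genes nearest in pattern to each of the 9 whose group means span over 1 on the log2 scale. Listed genes whose lost calls bear on a count were named too. Subtracting inner counts and removing the GC trend were chosen after seeing the data.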

Additional observations from a re-analysis of the deposited data

Results flagged for a closer look

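The etoposide responses of the lines differed by the interaction test of limma-trend for 13 of the genes named or listed, each given as the DKO response minus the Null response on the log2 scale. Over all 18066 genes tested, 9.45% had an interaction called, 3.07% higher and 6.39% lower. Neat1 was among them at 0.57, and so were its windows Gm28006 at 1.19, Gm27505 at 1.09 and Gm27533 at 1.34. Myc, the neighbour of Pvt1, was at -2.31 and Tfeb at 1.16. Of the further long noncoding RNAs, Dleu2 was at -1.01, Mir155hg at -1.22 and Mir22hg at -0.68, and of the small ones Rnu11 at -0.81 and Rnu12 at -1.06. Smarca4 was at 0.53 and Rpp40 at 0.57. The calls of Gm27505 and Gm27533 were each lost in 11 of 24 alternatives. The calls of Mir155hg, Rnu12 and Rpp40 were lost in 14, 11 and 10 of 24 alternatives, and that of Mir22hg in 5. With 3 libraries in each group, single outlying libraries were not tested for.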

How the results depend on the processing

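Over 45 results (9 RNAs in 5 contrasts) and 1116 comparisons with an alternative, 1047 kept their side of the threshold, 63 lost a call and 6 gained one. Those that kept their side include differences that were not called and changed sign, such as Neat1 in Null cells (-0.05 to 0.06 on the log2 scale). Among the other genes named, 320 results and 7936 comparisons gave 324 lost calls, 123 gained calls and 1 reversal. The reversal was Mepce in Null cells, at -0.00428 with the GC trend removed. Calls of the 9 RNAs changed to 2 in Null cells with inner counts subtracted, and to 3 between the lines after etoposide with the GC trend removed or with a replicate block. Further snoRNA hosts called between the control groups were 2 with DESeq2 and with library size alone. Genes called between the control groups were 2031 when only the groups compared were fitted. The causes were not tested.

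Leaving out 1 library gave 4 to 7 of the 9 RNAs called with etoposide in Null cells, 2 to 3 in DKO cells, 0 to 1 between control groups, 1 to 6 between treated groups and 1 to 1 for the interaction. For all genes the ranges were 5900 to 8036, 5877 to 7895, 2727 to 4721, 4737 to 7004 and 1203 to 2038, and for further snoRNA hosts 4 to 7, 3 to 5, 1 to 3, 4 to 7 and 0 to 1. No pairing of libraries by replicate number was visible, since same-numbered libraries correlated between -0.54 and 0.39 in their deviations. These correlations cannot exclude a pairing, because deviations shared by other libraries could hide it. The replicate block ended 5 calls among the 45 results. Pvt1 and the windows of Neat1 rest on few counts, and the effect of depth was not tested.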
